A study of Mus musculus with 16 samples.

Results

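The Wnt ligands, their Frizzled receptors and the secreted antagonists that keep ligand from receptor were examined in neonatal mouse cochleae after killing of Lgr5-expressing supporting cells. Members were taken by gene symbol alone: every Wnt, Fzd, Sfrp1 to Sfrp5 and Dkk1 to Dkk4 gene, with Frzb and Wif1. The symbols matched 40 rows of the 50316 listed, and 39 carried values among 47729 genes with values. These 39 were 19 ligands, 10 Frizzleds and 10 antagonists. The second row for Fzd6, under another identifier, was empty in every library, so the level of Fzd6 is uncertain. The study paired RNA pulled down with tagged ribosomes (IP) with total RNA of the same homogenate (input), in control and in DTR cochleae at postnatal day 4. Control mice were GLAST CreERT/+; Rpl22 HA/+, in which Cre driven from the GLAST (Slc1a3) locus puts an HA tag on a ribosomal protein. DTR mice carried the same alleles plus Lgr5 DTR-EGFP/+, a knock-in that puts the diphtheria toxin receptor in place of 1 copy of Lgr5. According to the study's methods both genotypes received diphtheria toxin and tamoxifen at P1, while the labels call the controls untreated and the damaged mice DTR treated. Each of the 4 groups held 4 libraries, and each replicate pooled 8 cochleae from 4 mice trimmed of Reissner's membrane, the lateral wall and the spiral ganglion. Levels are given as CPM, a gene's reads scaled to a common library total.

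Wnt proteins are secreted, lipid-modified ligands that bind Frizzled receptors, and with the co-receptors Lrp5 and Lrp6 the bound complex stabilises beta-catenin, whereas other Wnts such as Wnt5a act through Ror2 and the planar cell polarity route. Sfrp proteins, Frzb and Wif1 bind Wnts outside the cell, and Dkk1, Dkk2 and Dkk4 occupy Lrp5 and Lrp6. In the neonatal cochlea Lgr5, itself a Wnt target, marks supporting cells that are able to divide or form hair cells. The paper found little to no division in undamaged sensory epithelia.

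The libraries held 28089836 to 41966310 reads on genes, so that 3 reads were worth 0.0715 to 0.107 CPM. Lgr5 was 63.3 ± 3.03 CPM (SD, n = 4) in control input and 15.9 ± 3.69 in DTR input, and 36.6 ± 3.99 in control IP against 9.38 ± 1.40 in DTR IP. Slc1a3, whose promoter drives the Cre, lay lower in IP than in input with adjusted p = 0.10 in control and 0.030 in DTR, so the IP was not richer in it. Of 8 markers of the Lgr5-expressing supporting cell 6 fell in DTR IP and 7 in DTR input. The 8 macrophage markers summed to 20.2 to 29 CPM in control IP and 42.9 to 71.1 in DTR IP, and 6 of them rose in DTR IP and 6 in DTR input. The 8 cell division genes all rose in DTR IP and 6 rose in DTR input, and 4 of 10 mesenchyme markers rose in DTR IP and 0 in DTR input. Of 7 genes listed as lateral wall and stria vascularis markers 3 fell in DTR IP and 3 in DTR input. These were Kcnj10, Kcne1 and Atp1b2 in both, while Dct, Esrrb, Kcnq1 and Mitf did not pass in either. The list summed to 229.8 to 275 CPM in control IP against 85.4 to 115 in DTR IP. In input it summed to 319.6 to 366 CPM in control against 149.6 to 169 in DTR. The lateral wall had been trimmed off, and which cells gave the reads of this list was not tested. Of 7 Schwann cell and glia markers 2 fell in DTR IP and 5 in DTR input, where the sum went from 2193 to 3817 CPM in control to 1034 to 1494 in DTR. In DTR IP 2 of 10 hair cell markers rose and 1 fell. Of 8 markers of the greater epithelial ridge and inner phalangeal cell 2 fell there, Fabp7 and Tecta. The paper uses Fabp7 as a marker found mainly in inner phalangeal cells. Also in DTR IP, 1 of 7 neuron markers fell and 1 of 8 endothelium and pericyte markers rose. In DTR input the greater epithelial ridge and inner phalangeal cell list had 2 higher and 1 lower. The hair cell list had 1 lower, the neuron list 1 lower and the endothelium and pericyte list 0. None of the markers of any listed cell type was under 3 reads in every library of a group. The part of these cell types in the values given here was not tested. In whole tissue and in pull-downs alike, fewer cells of a type and less RNA per cell cannot be told apart.

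Promoter sequences are shown for 4 members that the damage results name: Wnt10b and Wnt1, neighbouring ligands at or near 0 in controls and below the minimum for testing, and the ligand Wnt7a and the receptor Fzd4, which fell in DTR cochleae. No promoter of Sfrp1, Dkk3, Wnt10a, Wnt5a or Wnt7b was analysed here. Each run holds 250 bases before and 50 after the RefSeq start on GRCm38.p6, 5′ to 3′ on the gene's strand, and capitals mark matches to the GC box GGGCGG on either strand, with overlapping matches run together. Wnt10b lies at chr15:98778101-98778400 on the minus strand, Wnt1 at chr15:98789607-98789906 on the plus strand, Wnt7a at chr6:91411304-91411603 on the minus strand and Fzd4 at chr7:89404116-89404415 on the plus strand.
Wnt10b: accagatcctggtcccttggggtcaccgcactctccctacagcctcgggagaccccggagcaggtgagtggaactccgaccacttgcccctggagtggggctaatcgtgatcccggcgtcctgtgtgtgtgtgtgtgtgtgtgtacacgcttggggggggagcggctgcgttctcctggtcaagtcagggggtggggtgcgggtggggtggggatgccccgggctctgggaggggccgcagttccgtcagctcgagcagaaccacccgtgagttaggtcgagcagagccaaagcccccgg
Wnt1: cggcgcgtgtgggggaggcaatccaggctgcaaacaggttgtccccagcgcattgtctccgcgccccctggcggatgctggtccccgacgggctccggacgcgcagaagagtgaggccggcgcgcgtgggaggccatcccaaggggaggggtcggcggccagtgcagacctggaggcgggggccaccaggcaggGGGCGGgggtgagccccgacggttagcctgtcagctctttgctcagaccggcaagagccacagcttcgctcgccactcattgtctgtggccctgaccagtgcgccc
Wnt7a: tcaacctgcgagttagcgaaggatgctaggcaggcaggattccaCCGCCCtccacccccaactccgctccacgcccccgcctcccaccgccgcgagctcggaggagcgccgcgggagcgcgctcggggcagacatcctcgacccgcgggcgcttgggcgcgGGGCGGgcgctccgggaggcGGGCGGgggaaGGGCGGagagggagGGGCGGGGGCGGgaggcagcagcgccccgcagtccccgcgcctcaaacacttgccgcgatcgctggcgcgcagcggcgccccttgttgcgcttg
Fzd4: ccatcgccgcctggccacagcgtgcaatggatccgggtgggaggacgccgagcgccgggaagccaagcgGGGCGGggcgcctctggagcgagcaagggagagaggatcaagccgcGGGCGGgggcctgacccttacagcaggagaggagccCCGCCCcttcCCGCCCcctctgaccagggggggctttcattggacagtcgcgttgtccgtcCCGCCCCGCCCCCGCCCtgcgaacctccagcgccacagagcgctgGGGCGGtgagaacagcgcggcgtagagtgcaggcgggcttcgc
The Wnt10b window holds no match, the Wnt1 window 1, the Wnt7a window 6 and the Fzd4 window 8. RefSeq gave 30 promoters for 27 of the 39 members, and 23 of the 30 (76.7%) held a GC box, against 35.7% of 32851 promoters of the same length. The members' promoters were also rich in G and C, with a median of 66.5% against 52.7% over all promoters. The letters CTTTGA, the core that TCF/LEF factors bind, were in 5 of the 30 (16.7%) and in 16% of all promoters. The AP-1 letters TGANTCA were in 1 of the 30 and in 7.81% of all, and the TATA letters TATAAA in 5 and in 13.6%. All 4 motifs were read on both strands.

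Of the 39 members, 29 reached 0.5 CPM in every replicate of at least 1 group and were tested beside 16994 genes in all: 11 ligands, all 10 Frizzleds and 8 antagonists. The filter was met in every group by 26. Wnt10a met it only in DTR input and Fzd6 only in DTR IP, so both had been let in by the group where they were high, and Wnt3 met it in control IP and DTR input. The 10 below it were Dkk1, Dkk4, Wnt1, Wnt2b, Wnt3a, Wnt8a, Wnt8b, Wnt9b, Wnt10b and Wnt16.

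**Figure D1:**
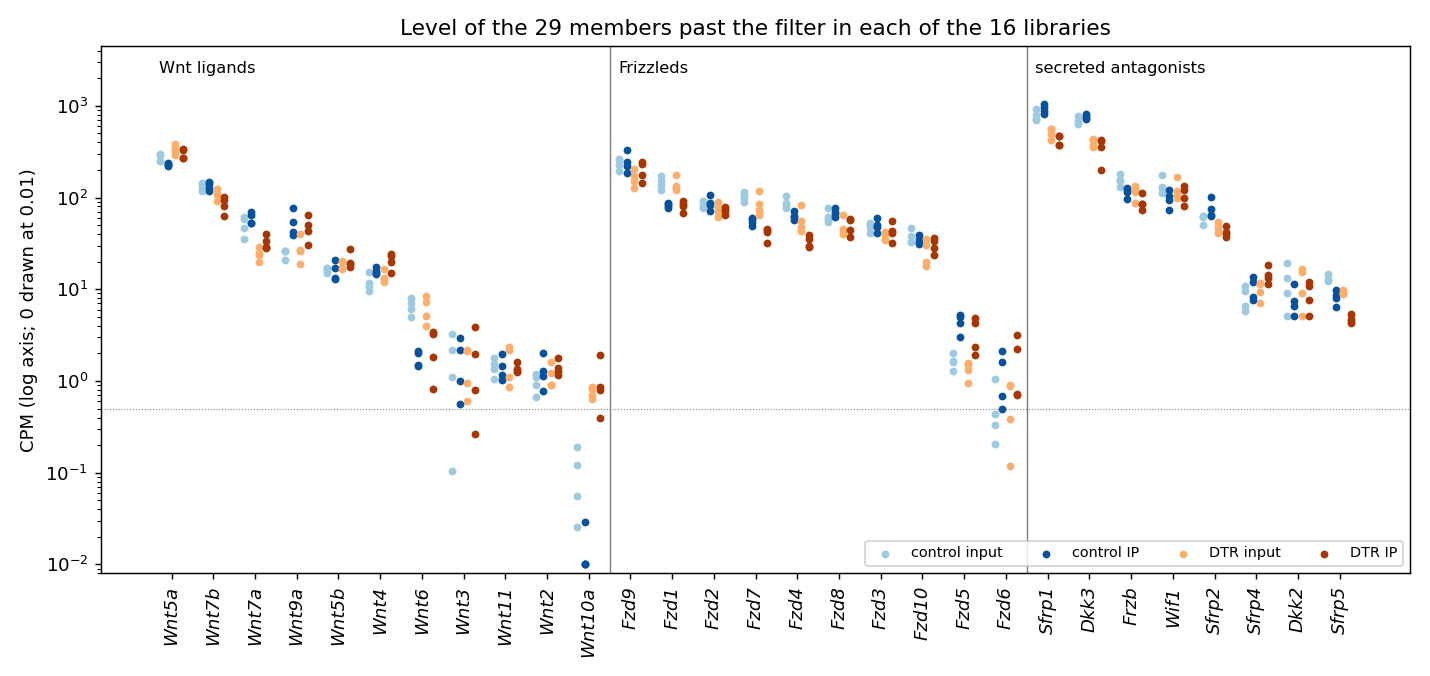
CPM (log axis) of the 29 tested members in each of the 16 libraries, 1 point per library, coloured by group and sorted by level within ligands, Frizzleds and antagonists; the dotted line is the 0.5 CPM minimum. Sfrp1 and Dkk3 stand above every other member in the 8 control libraries, while Dkk3 lies under Wnt5a in DTR input and DTR IP replicate 3. Wnt10a is at or near 0 in the 8 control libraries.

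In the undamaged cochlea the antagonists, taken as a sum that includes Dkk3, were the most abundant members. The 10 antagonists summed to 1856 ± 170 CPM (SD, n = 4) in control input, the 10 Frizzleds to 803 ± 69.1 CPM and the 19 ligands to 517 ± 28.1 CPM. Sfrp1 and Dkk3 alone made up 79.3% ± 2.18 of the antagonists' sum in control input and 84.3% ± 1.13 in control IP. Without them the antagonists summed to 384 ± 44.9 CPM in control input, less than the Frizzleds or the ligands. Divided by exonic length, the levels in control IP were led by Dkk3 at 228 ± 12.7 CPM per kb and Sfrp1 at 212 ± 23.8 CPM per kb, whose ranges overlapped. Fzd9 followed at 107 ± 27.4 CPM per kb, apart from both neighbours in the order. Wif1, Frzb, Sfrp2, Wnt5a and Wnt7b came next, from 40.4 down to 27.3 CPM per kb, each overlapping the one below it. Among the ligands, Wnt5a and Wnt7b led, followed by Wnt7a at 19 and Wnt9a at 16 CPM per kb.

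The comparison of IP with input asks which members are read by ribosomes of the Cre-recombined cells more or less than in the whole tissue. In control cochleae Fzd5, Wnt9a and Sfrp1 were higher in IP and Wnt6, Fzd7, Fzd1, Sfrp5, Fzd4 and Frzb were lower. In limma's moderated test with Benjamini-Hochberg adjustment over all 16994 genes, 3 of 29 members were thus higher, where 19.3% of all genes were, and 6 lower, where 20.7% were; 3 members passed with a change of at least 1 on the log2 scale, as did 10.5% of all genes. In DTR cochleae 3 members were higher (18.6% of all genes) and 6 lower (20.5%), and 3 passed the fold as well (9.17%). As shares of the 29, these are 10.3% higher and 20.7% lower in each genotype, near or below those of all genes.

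Fzd5, a receptor of the canonical pathway, measured 1.62, 1.30, 2.01 and 1.66 CPM in control input (replicates 1 to 4) and 4.28, 5.24, 4.97 and 3.04 CPM in control IP. The groups did not overlap, and the log2 fold change on quantile-normalised CPM + 0.5 was 1.23 (SE 0.25, adjusted p = 0.00071). In DTR it measured 0.945, 1.31, 1.48 and 1.55 CPM in input and 1.93, 4.27, 4.87 and 2.37 CPM in IP, again without overlap, with a log2 fold change of 1.05 (SE 0.25, adjusted p = 0.0028). Fzd5 shares 1233 exonic bases with Gm38058 on the other strand, and the library kit does not keep strand, so reads of the pair cannot be told apart.

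Wnt9a, a ligand active in joint and vessel development, read 21.1, 26.1, 26.1 and 26.4 CPM in control input and 42.2, 54.5, 76.6 and 39.1 CPM in control IP. All 4 IP libraries were above all 4 input libraries, with a log2 fold change of 1.02 (SE 0.24, adjusted p = 0.0025). In DTR the ranges overlapped, 18.7 to 40.0 CPM in input and 30.6 to 65.2 in IP, and the log2 fold change was 0.71 (SE 0.24, adjusted p = 0.027); leaving out 1 library at a time brought this adjusted p to as much as 0.11.

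Wnt6, an epithelial ligand, went the other way. It measured 8.05, 7.15, 5.01 and 6.05 CPM in control input and 2.03, 2.12, 1.5 and 1.47 CPM in control IP, with no overlap and a log2 fold change of -1.51 (SE 0.29, adjusted p = 0.00047). In DTR the input libraries read 7.24, 5.16, 3.93 and 8.47 CPM and the IP libraries 3.44, 1.82, 0.828 and 3.26, a log2 fold change of -1.31 (SE 0.29, adjusted p = 0.0017).

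Fzd1 and Fzd7, related receptors of the canonical pathway, were lower in IP in both genotypes. Fzd7 ran from 90.1 to 115 CPM in control input and from 48.7 to 59.1 CPM in control IP, a log2 fold change of -0.88 (SE 0.16, adjusted p = 0.00024), and -1.05 in DTR (adjusted p = 5e-05). Fzd1 ran from 119.9 to 172 CPM in control input and from 76.2 to 87.0 CPM in control IP, with log2 fold changes of -0.77 in control and -0.77 in DTR. In no case did IP and input overlap. Markers of several other cell types were lower too: of the endothelium and pericyte list 8 of 8 were lower in control IP and summed to 443 to 515 CPM in control input and 134 to 192 CPM in control IP. Of the macrophage list 8 of 8, of the Schwann cell list 6 of 7 and of the hair cell list 9 of 10 were also lower in control IP, as were 7 of 8 cell division genes. The other lists were mixed in control IP. Mesenchyme had 5 of 10 lower and 2 higher, and lateral wall and stria vascularis 4 of 7 lower and 1 higher. The greater epithelial ridge and inner phalangeal cell list had 3 of 8 lower and 2 higher. The Lgr5-expressing supporting cell list had 3 of 8 lower and 3 higher, and neuron 3 of 7 lower and 0 higher. The part of all these cell types in the lower Frizzled levels was not tested.

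Sfrp5 was lower in IP at -0.62 (SE 0.17, adjusted p = 0.0069) in control and -0.89 (SE 0.17, adjusted p = 0.00043) in DTR. Fzd4 was lower at -0.45 (adjusted p = 0.042) and -0.77 (adjusted p = 0.0014). Frzb at -0.40 (adjusted p = 0.046) and Sfrp1 at 0.36 (adjusted p = 0.025) passed in control alone, and Wnt4 at 0.53 (adjusted p = 0.021) and Wnt7b at -0.37 (adjusted p = 0.038) in DTR alone; no difference between the genotypes passed the test given further on. These 4 calls and that of Fzd4 in control were not stable. Of 19 alternatives, among them the leaving out of single libraries, 9 lost Frzb (adjusted p up to 0.15), 9 Sfrp1 (up to 0.23), 9 Fzd4 in control (up to 0.13), 10 Wnt7b (up to 0.15) and 4 Wnt4 (up to 0.071). With the replicate block, which uses the shared homogenate of IP and input, 14 members passed in DTR in place of 9. The added ones were Frzb, Fzd6, Fzd9, Sfrp4 and Wnt7a, while the share of all genes went from 39.2% to 48.2%. Fzd6 had been let into the test by DTR IP alone, where it was high, so its place in this count supports nothing about the members.

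**Figure D2:**
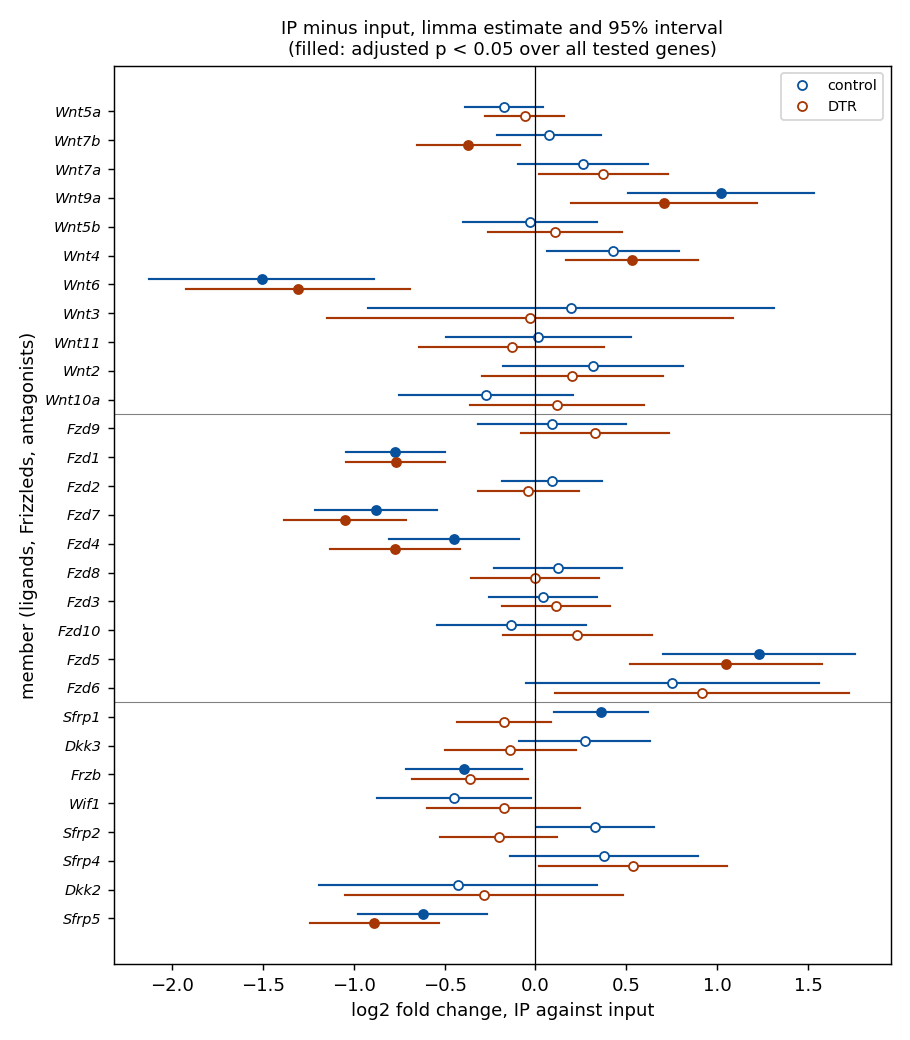
log2 fold change of IP against input for the 29 tested members in control and DTR cochleae; points are limma estimates, lines 95% intervals, and filled points have adjusted p under 0.05. Fzd5 and Wnt9a lie to the right in both genotypes and Wnt6, Fzd1, Fzd7, Fzd4 and Sfrp5 to the left.

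The comparison of DTR with control asks how the pathway's extracellular parts stood 3 days after the toxin. In IP the antagonists Sfrp1, Dkk3, Sfrp2 and Sfrp5, the receptors Fzd4 and Fzd8 and the ligands Wnt7a and Wnt7b fell, and the ligands Wnt10a and Wnt5a rose. Thus 8 of 29 tested members fell in DTR IP, where 7.3% of all genes did, and 2 rose, where 8.44% did. In input 5 fell (5.21% of all genes), namely Wnt7a, Dkk3, Fzd4, Sfrp1 and Sfrp5, and 1 rose (7.17%), Wnt10a. Wnt10a had been let into the test by DTR input, where it was high, so its place in these counts supports nothing about the members. Requiring also a log2 change of at least 1 left 3 members in IP (4.45% of all genes), Dkk3, Sfrp1 and Wnt10a, and 1 in input (4.07%), Wnt7a. The median log2 fold change over the 29 was -0.26 in IP and -0.18 in input, beside medians of 0.00 and -0.02 over all genes tested. IP and input of a pool come from the same animals, so the pair is not independent evidence.

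Sfrp1, a secreted Wnt-binding protein, had the highest mean CPM of the members in control IP and input, though not per kb, where Dkk3 led. It measured 709, 720.3, 919 and 799 CPM in control input and 427, 495, 557 and 566 CPM in DTR input. In IP it measured 817, 871, 1047 and 979 CPM in control and 378, 466, 375 and 474 CPM in DTR. Every DTR library lay under every control library of its kind. The log2 fold change was -1.09 (SE 0.12, adjusted p = 4.2e-06) in IP and -0.55 (SE 0.12, adjusted p = 0.0046) in input.

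Dkk3, a divergent Dickkopf whose effect on Wnt signalling varies between settings, measured 658, 629.9, 769 and 685 CPM in control input and 373, 434, 356 and 419 CPM in DTR input. In IP it measured 778, 720.0, 742 and 818 CPM in control and 416, 423, 202 and 356 CPM in DTR. The DTR libraries were again all lower, and the third DTR IP library was the lowest of all. The log2 fold change was -1.13 (SE 0.17, adjusted p = 0.00012) in IP, or -0.88 without that library, and -0.72 (SE 0.17, adjusted p = 0.0083) in input.

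Sfrp2 and Sfrp5, further Wnt-binding antagonists, were less abundant. Sfrp2 read 63.5, 65.1, 75.6 and 101 CPM in control IP and 40.4, 42.6, 37.0 and 48.4 CPM in DTR IP, a log2 fold change of -0.87 (SE 0.15, adjusted p = 0.00054). Its change in input was -0.34 (adjusted p = 0.18; with the replicate block 0.035), and it shares 347 exonic bases with Gm26771 on the other strand. Sfrp5 read 7.95, 6.40, 8.73 and 9.74 CPM in control IP and 4.24, 5.34, 4.51 and 4.73 CPM in DTR IP, a log2 fold change of -0.80 (SE 0.17, adjusted p = 0.0027). In input it went from 12.2 to 14.7 CPM in control to 8.86 to 9.70 CPM in DTR, with -0.54 (SE 0.17, adjusted p = 0.044), a call that was lost when any 1 of the 8 input libraries was left out.

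The other 4 tested antagonists did not pass. Frzb had a log2 fold change of -0.40 in IP (adjusted p = 0.089) and -0.43 in input (adjusted p = 0.076), and with the replicate block these became adjusted p = 0.019 and 0.014. Wif1 gave 0.13 and -0.15, Sfrp4 0.40 and 0.24, and Dkk2 0.11 and -0.03. Summed over the 10 antagonists, the level was 2009 ± 155 CPM in control IP against 1039 ± 142 CPM in DTR IP, while the 19 ligands summed to 517 ± 27.7 and 518 ± 52.8 CPM. Antagonist reads per ligand read were 3.64 to 4.31 in control IP and 1.65 to 2.26 in DTR IP, and 3.36 to 3.97 in control input and 2.16 to 2.36 in DTR input. Dkk3 is counted here as an antagonist by its family, though its effect on Wnt signalling varies between settings. Without Sfrp1 and Dkk3 the antagonists' sum was 316 ± 44.1 CPM in control IP against 267 ± 21.5 CPM in DTR IP.

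Among the receptors Fzd4, which also binds the non-Wnt ligand Norrin, changed the most. It read 57.0, 61.8, 72.1 and 62.8 CPM in control IP and 29.3, 35.6, 29 and 39.0 CPM in DTR IP, without overlap, a log2 fold change of -0.97 (SE 0.17, adjusted p = 0.00052). In input it read 82.4, 77.8, 103 and 88.3 CPM in control and 42.9, 48.3, 55.2 and 82.1 CPM in DTR, where the fourth DTR library overlapped the controls, with -0.64 (SE 0.17, adjusted p = 0.016), a call lost without control input replicate 3 or DTR input replicate 1 or 2 (adjusted p up to 0.071). Fzd8 went from 61.5 to 76.7 CPM in control IP to 37.2 to 58.2 CPM in DTR IP, with -0.53 (SE 0.17, adjusted p = 0.040), and lost the call without control IP replicate 3 or 4 or DTR IP replicate 1 or 3. The other 8 Frizzleds did not pass in either kind of RNA. With the replicate block Fzd7 (-0.46, adjusted p = 0.0066) and Fzd9 (-0.27, adjusted p = 0.040) fell in IP, and Fzd9 (-0.50, adjusted p = 0.00054), Fzd10 (-0.60, adjusted p = 0.0015), Fzd8 (-0.40, adjusted p = 0.047) and Fzd3 (-0.33, adjusted p = 0.046) in input. The estimates for Fzd1 were -0.04 in IP and -0.04 in input.

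The ligand Wnt7a, which acts in synapse and epithelial polarity, read 53.0, 65.2, 69.9 and 53.1 CPM in control IP and 29, 40.1, 28.3 and 33.5 CPM in DTR IP, a log2 fold change of -0.92 (SE 0.17, adjusted p = 0.0008). In input it read 35.7, 47.0, 60.9 and 58.5 CPM in control and 19.8, 23.8, 24.7 and 29.2 CPM in DTR, with -1.03 (SE 0.17, adjusted p = 0.00031). Neither pair of groups overlapped. Wnt7b, its close relative, read 119, 127, 141 and 147 CPM in control IP and 95.0, 100.3, 62.7 and 80.2 CPM in DTR IP, with -0.69 (SE 0.14, adjusted p = 0.0014), and in input gave -0.25 (adjusted p = 0.29). Wnt7b shares 324 exonic bases with AU022754 on the other strand.

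Wnt5a, the abundant ligand of the polarity route, rose. It read 238, 227, 234 and 223 CPM in control IP and 273, 338, 328 and 272 CPM in DTR IP, without overlap, with a log2 fold change of 0.43 (SE 0.10, adjusted p = 0.0066). The call was lost with median centring in place of quantile normalisation (adjusted p = 0.055) and in edgeR (adjusted p = 0.069). In input the change was 0.32 (adjusted p = 0.050, and 0.036 with the replicate block). Wnt5a shares 358 exonic bases with Gm2670 on the other strand. With the replicate block 13 members passed in input in place of 6: Frzb, Fzd3, Fzd8, Fzd9, Fzd10, Sfrp2 and Wnt5a were added and none was lost, while the share of all genes went from 12.4% to 17.7%.

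**Figure D3:**
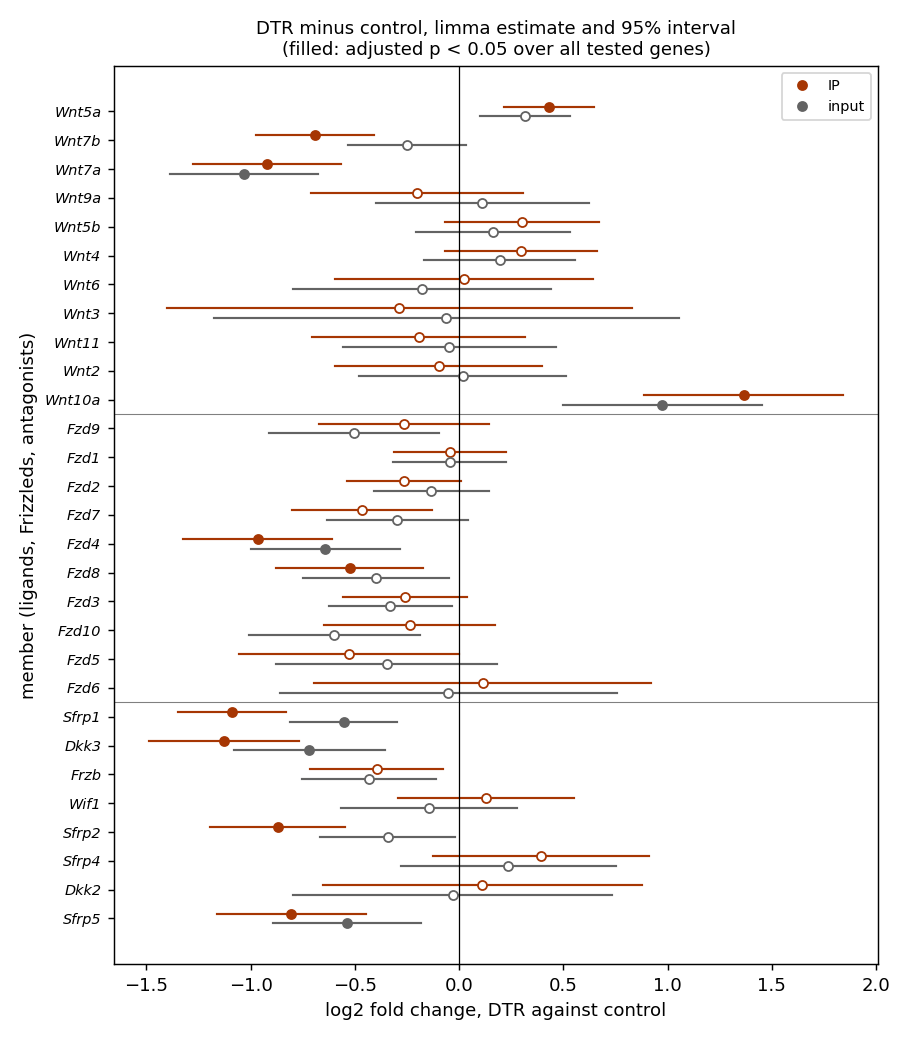
log2 fold change of DTR against control in IP and in input for the 29 tested members; points are limma estimates, lines 95% intervals, and filled points have adjusted p under 0.05. Sfrp1, Dkk3, Sfrp5, Fzd4 and Wnt7a are filled to the left in both kinds of RNA and Wnt10a to the right. Wnt10a was let into this fit by DTR input alone, where it was high.

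Wnt10a, Wnt10b and Wnt1, canonical ligands, were at or near 0 in control cochleae and were read after damage. Wnt10a had 0, 1, 0 and 0 reads in control IP and 27, 11, 58 and 24 reads in DTR IP. In input it had 8, 2, 5 and 1 reads in control and 24, 28, 32 and 21 reads in DTR. The groups were apart in both. Since Wnt10a passed the minimum in DTR input alone, its test is given without any minimum, where limma gave log2 fold changes of 1.36 (SE 0.21, adjusted p = 0.00081) in IP and 0.98 (SE 0.21, adjusted p = 0.012) in input, which the added 0.5 CPM makes smaller. After scaling to library size, the DTR input libraries together held 7.46 times the Wnt10a reads of the control input libraries (exact 95% interval 4.38 to 13.5). In IP the ratio, against a single read, was 133 (23.4 to 5282). These intervals, and the limits below, cover counting error only.

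Wnt10b had 0 reads in all 4 control input libraries and 20, 18, 20 and 16 reads in the DTR input libraries, 0.591, 0.549, 0.511 and 0.487 CPM. With 3 reads over the control group as the floor, DTR input was at least 28.0-fold higher. In IP it had 1, 0, 0 and 0 reads in control and 8, 8, 0 and 11 reads in DTR, so that the third DTR IP library had none. The fourth DTR input library kept it just under the 0.5 CPM minimum, and Wnt10b was therefore not among the 29. Without the minimum, limma gave adjusted p = 2.6e-05 in input and 0.024 in IP.

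Wnt1 lies 11706 bases from Wnt10b on chromosome 15, and the genes are read away from each other. It had 1, 0, 1 and 1 reads in control input and 3, 10, 5 and 22 reads in DTR input, a ratio after scaling of 15.1 (exact 95% interval 4.82 to 76.6). In IP it had 0 reads in the 4 control libraries and 10, 17, 0 and 12 reads in DTR, at least 14.4-fold higher. The third DTR IP library again held 0 reads. Without the minimum, limma gave adjusted p = 0.20 in input and 0.098 in IP for Wnt1, so its rise did not pass.

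Wnt6 ends 6193 bases before Wnt10a on the same strand of chromosome 1, and its log2 fold changes with damage were 0.02 in IP and -0.18 in input. The remaining tested ligands, Wnt2, Wnt3, Wnt4, Wnt5b, Wnt9a and Wnt11, did not pass in IP or input. Of those below the minimum, Wnt2b lay between 0.207 and 1.12 CPM in all libraries. Wnt16 had 40 reads over the control input libraries and 84 over DTR input, a ratio of 2.39 (1.62 to 3.57), and Dkk1 had 27 and 9, a ratio of 0.379 (0.157 to 0.830). In IP the ratios were 0.878 (0.602 to 1.27) for Wnt16 and 0.850 (0.334 to 2.10) for Dkk1. Single input libraries overlapped between control and DTR, at 4 to 14 and 10 to 31 reads for Wnt16 and 4 to 9 and 0 to 5 for Dkk1. These intervals cover counting error only. Dkk4, Wnt3a, Wnt8a, Wnt8b and Wnt9b had at most 14 reads summed over any group.

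**Figure D4:**
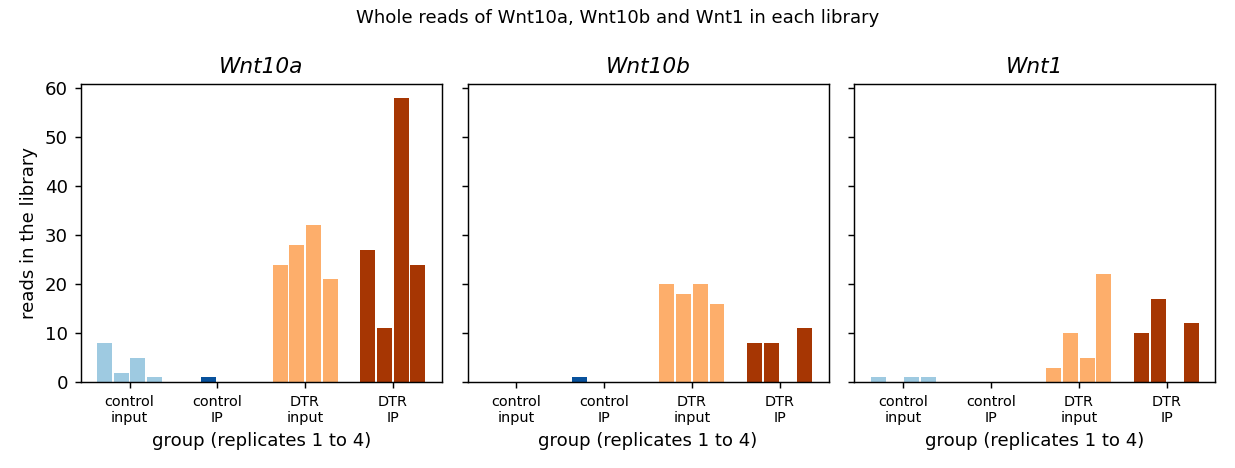
Whole reads of Wnt10a, Wnt10b and Wnt1 in each of the 16 libraries, 1 bar per library with replicates 1 to 4 from left to right in each group. Control bars reach 8 reads for Wnt10a and 1 for the others, and the third DTR IP bar is the highest of all for Wnt10a and absent for Wnt10b and Wnt1.

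Whether damage moved members differently in IP and in input was tested as the difference between the changes. In limma 0 of 29 members passed, as did 0.0118% of all genes. At an unadjusted p under 0.05 there were 3, Sfrp1, Sfrp2 and Wnt7b, and edgeR and DESeq2 also called 0. Sfrp1 fell further in IP by 0.53 on the log2 scale (95% interval -0.90 to -0.17, adjusted p = 0.61). Sfrp2 gave -0.53 (-0.99 to -0.07) and Wnt7b -0.44 (-0.84 to -0.04). The 95% intervals of the 29 differences reached from 0.305 to 1.58 on either side of the estimate. These intervals are not adjusted for the number of genes, so the adjusted test can miss differences larger than that. Sfrp1, Sfrp2 and Wnt7b, whose intervals left out 0, were not called at this depth and number of pools.

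In some members most of the spread within groups went with the replicate number. Dkk2, a Dickkopf that binds Lrp5 and Lrp6, measured 13.3, 19.3, 9.04 and 5.07 CPM in control input, 7.45, 11.3, 6.50 and 5.10 in control IP, 15.6, 16.5, 9.01 and 5.06 in DTR input and 12, 10.8, 7.69 and 5.13 in DTR IP. In all 4 groups the libraries numbered 1 and 2 were the highest and number 4 the lowest. Wnt3, a canonical ligand, showed the same order, from 3.27 down to 0.103 CPM in control input and from 3.86 down to 0.263 CPM in DTR IP. Fzd9, the third in this respect, was lowest in number 2 and highest in number 4 in every group, for instance 128 and 203 CPM in DTR input.

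The replicate number held 85.6% of the within-group sum of squares of Dkk2, 88.1% of that of Wnt3 and 90.9% of that of Fzd9. Values as high or higher were met by 2.37%, 1.55% and 0.894% of all tested genes. At the other end stood Wnt5a with 14.5% and Wnt7b with 16.6%. What control and DTR pools of the same number share is not given in the sources used here, and Dkk2 and Wnt3 passed in no comparison.

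**Figure D5:**
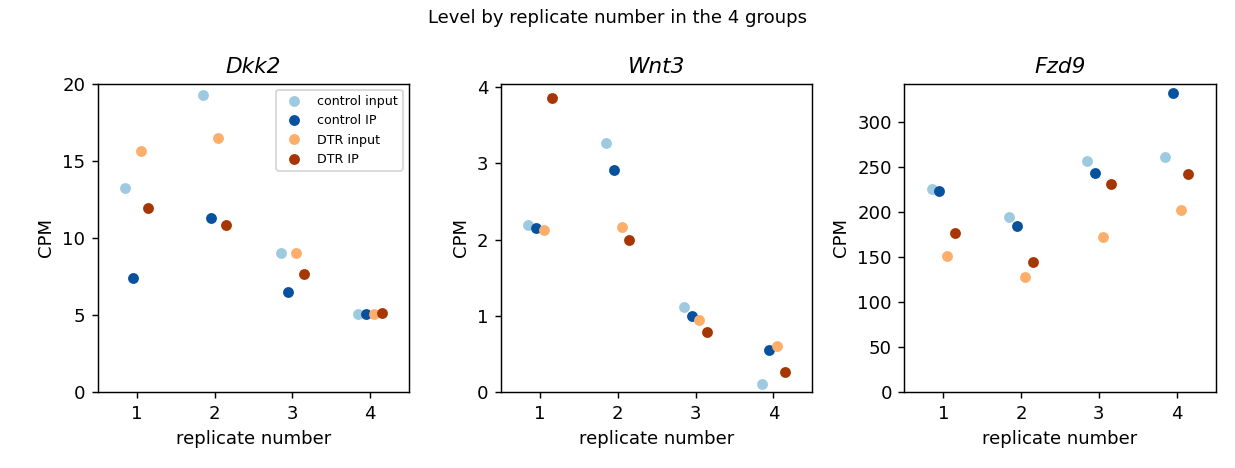
CPM of Dkk2, Wnt3 and Fzd9 against replicate number, 1 point per library, coloured by group and set slightly apart within a number. Dkk2 and Wnt3 are highest in numbers 1 and 2 in all groups, and Fzd9 is highest in number 4.

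Around the members, the other parts of the pathway moved unevenly with damage. Of 19 further receptors and co-receptors 7 fell (7.3% of all genes) and 1 rose (8.44%) in DTR IP. In DTR input 4 fell (5.21%) and 2 rose (7.17%). The rise in both was Kremen2, a co-receptor of Dickkopfs, from 0.355 ± 0.229 to 3.35 ± 0.286 CPM in IP, a log2 fold change of 2.13 (SE 0.23, adjusted p = 2.8e-06), and by 2.08 in input. Its relative Kremen1 fell by 1.17 in IP (adjusted p = 1.3e-05) and 1.03 in input (adjusted p = 6.1e-05), from a higher level, 238 ± 13.3 to 106 ± 13.9 CPM in IP. Lgr5 fell by 1.93 in IP (adjusted p = 3.5e-08) and its relative Lgr6 by 1.08 (adjusted p = 3e-05); Lgr5 is itself the locus of the knock-in. Ror2, the co-receptor for Wnt5a, fell by 1.54 in IP (SE 0.40, adjusted p = 0.011), and by 0.95 without the third DTR IP library. Tspan12, the partner of Fzd4 in Norrin binding, fell by 0.77 in IP (adjusted p = 0.00019). Gpc4 fell by 1.32 in IP (adjusted p = 6.7e-05) and the co-receptor Lrp5 by 0.76 (adjusted p = 0.0075), and neither passed in input.

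Of 16 genes of ligand processing, R-spondins and other secreted modulators 13 were tested. In DTR IP 4 fell (7.3% of all genes) and 0 rose (8.44%), and in DTR input 2 fell (5.21%). Notum, which strips the lipid from Wnts, fell by 1.14 in IP (SE 0.23, adjusted p = 0.0018) and 1.76 in input (SE 0.23, adjusted p = 2.4e-05). Rspo1, an Lgr5 ligand, fell by 1.18 in IP (SE 0.22, adjusted p = 0.0011). Draxin, a secreted antagonist, fell by 0.82 in IP (adjusted p = 0.031) and 1.21 in input (adjusted p = 0.0024). Wls, which carries Wnts to the surface, fell by 0.35 in IP (adjusted p = 0.026); the IP calls of Draxin and Wls were lost when certain single libraries were left out, 4 for Draxin and 3 for Wls.

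Of 20 genes listed as targets of beta-catenin 18 were tested. In DTR IP 6 fell (7.3% of all genes) and 0 rose (8.44%), and in DTR input 6 fell (5.21%) and 1 rose (7.17%). Fgf20 fell by 3.17 in IP (SE 0.27, adjusted p = 1.2e-07), Bmp4 by 1.85 (SE 0.23, adjusted p = 1.2e-05) and Nkd1, a feedback inhibitor, by 0.58 (SE 0.10, adjusted p = 0.00047). In the paper, a further RNA assay (nCounter) did not bear out the change of Bmp4 with damage. Sp5 fell by 0.66 in IP (adjusted p = 0.028) and did not pass in input (adjusted p = 0.15). Lgr5 and Notum stand in this list and in those above, and Prox1, which fell in input, is also a supporting cell marker. Axin2, the usual readout of the canonical pathway, measured 30.0 ± 4.68 CPM in control IP and 33.0 ± 4.88 in DTR IP, and did not pass. Znrf3, which removes Frizzleds from the surface, rose by 0.83 in input (SE 0.15, adjusted p = 0.00068).

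Of 27 cytoplasmic and nuclear components, from Dishevelled to Tcf, limma called 0 in DTR IP and 0 in DTR input, with 5 and 2 at an unadjusted p under 0.05. By edgeR 0 and 0 passed and by DESeq2 0 and 1, and the replicate block gave 4 in IP and 1 in input. The median log2 fold change was 0.08 in IP and 0.02 in input. The shares of all genes against which the 4 lists stand are those given for the members, 7.3% lower and 8.44% higher in DTR IP and 5.21% and 7.17% in DTR input.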

How the data were processed

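RNA of pooled P4 cochleae was sequenced as paired reads after SMART-Seq v4 amplification, which does not keep strand. The authors deposited 1 table per library with CPM per gene on GRCm38; their methods name HISAT2 and HTSeq, the submitters' processing notes TopHat. Dividing the deposited CPM by what 1 read was worth gave whole numbers in 100% of cases (tolerance 0.02 read), and these reads served for count tests and floors. For the main test CPM were quantile normalised, 0.5 was added, log2 was taken and limma 3.58.1 (R 4.3.3) was fitted with a trend on 4 group means over 16 libraries; genes needed 0.5 CPM in all replicates of a group, and an adjusted p under 0.05 was a call. limma recovered seeded changes in simulated counts, drawn independently for each library with the same dispersion for all genes. The simulation held no shared pools and no effect of replicate number, so it does not check the test under these. Exonic lengths, overlaps and neighbours come from GENCODE M21. Members and pathway lists were chosen with earlier results of these data known. All members could be named. Up to 8 called members per direction and comparison were given in full, and only some called genes of the pathway lists were named. Genes named for their replicate number or reads below the minimum were chosen after their values were seen.

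IP and input with the same number share a homogenate. Deviations from group means of same-numbered libraries correlated in all 4 pairs of groups that were compared (r at least 0.288). The mean r over other numbers, -0.13 to -0.12, largely follows from centring within groups and is no separate contrast. Single pairs of other numbers reached r = 0.290 in control input with control IP and 0.229 in control IP with DTR IP. The numbers were taken to pair the samples. Between genotypes this pairing is an assumption, on which the replicate block there rests. For groups that differ in both genotype and RNA, r was at least 0.227 (control IP with DTR input) and 0.021 (control input with DTR IP). Alternatives were no quantile normalisation, median centring, a length correction, pseudocounts of 0.1 and 1, no minimum, a minimum of 2 CPM, a fit on the compared groups, the replicate block, edgeR 4.0.16, DESeq2 1.42.0 and each library left out. The replicates are separate pools. The main fit has no term for the pool, so IP and input of the same pool count as independent libraries in it. Its p-values measure the spread of libraries within groups, taken over both kinds of RNA.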

Additional observations from a re-analysis of the deposited data

Results flagged for a closer look

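In 4 of 116 group values of the 29 tested members, 1 library lay far from the other 3 of its group; chance gives about 1 in 20 such groups. Wnt9a was 21.1 CPM in control input replicate 1, with the other 3 libraries at 26.1 to 26.4. Sfrp2 was 50.8 CPM in the same library, with the others at 61.5 to 63.5. Fzd2 was 91.3 CPM in control input replicate 3, with the others at 77.9 to 79.9. Wnt10a was 0.0291 CPM, 1 read, in control IP replicate 2, where the others had 0 reads.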

How the results depend on the processing

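Of 34 calls of a member in a comparison, 24 kept direction and call under every alternative that tested them and 0 changed sign under any; Wnt10a could not be tested with the 2 CPM minimum. With the replicate block, members called rose from 9 to 14 for DTR IP against DTR input, where all genes went from 39.2% to 48.2%, and from 6 to 13 for DTR input against control input, where they went from 12.4% to 17.7%. The cause was not tested, and no call was lost. The 14 include Fzd6, and the 6 and 13 include Wnt10a, each let into the test only by the group where it was high. The counts for the other comparisons were 6 to 13 (control IP against control input), 9 to 13 (DTR IP against control IP) and 0 (difference of the effects) over all alternatives. With 1 library left out the counts were 6 to 9, 7 to 9, 9 to 11, 4 to 8 and 0 for control IP against input, DTR IP against input, DTR against control in IP, the same in input, and the difference. For the beta-catenin targets the block gave 10 in place of 6 in DTR IP and 11 in place of 7 in DTR input, and for the ligand processing list 11 in place of 6 in DTR IP against DTR input; a fit on the compared groups gave 2 in place of 4 for that list in DTR IP against control IP. For the cytoplasmic and nuclear components, where limma called 0, the length correction gave 2 in DTR IP and 1 in DTR input, and the compared groups 1 in DTR input. Members under about 0.5 CPM rest on about 20 reads or fewer per library, which limits their precision.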
